A study of Mus musculus with 7 samples.

Results

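The activins, growth differentiation factors (GDF) and bone morphogenetic proteins (BMP) were followed with their secreted antagonists in mouse hearts, as 9 genes given by name out of the 56980 genes of the expression table. They were the ligand genes Inhba, Inhbb, Gdf15, Mstn and Bmp4, and the antagonist genes Fst, Fstl3, Fstl1 and Grem1. All 9 were found in the table by their Ensembl identifiers. RNA was sequenced from the myocardium of 7 wild-type male mice of the inbred strain C57BL/6J, which were 8 weeks old when purchased. In 3 mice the left coronary artery had been ligated 4 days before (MI), and 4 sham-operated mice had the same surgery without ligation. The sources name no transgene and no drug treatment, and the study describes the tissue of the MI mice as ischemic myocardium. Values are FPKM, the fragments counted on a gene relative to its length and to the size of the library, at depths of 19977712 to 23610868 fragments per mouse.

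These ligands are dimers that bind pairs of type I and type II serine/threonine kinase receptors on the cell surface. Activins and myostatin (Mstn) pass the signal mainly to the transcription factors SMAD2 and SMAD3, and BMPs mainly to SMAD1, SMAD5 and SMAD9. Inhba and Inhbb encode the beta subunits of activin A and activin B. GDF15 is a distant relative, a stress-induced circulating factor whose receptor GFRAL lies in the hindbrain. The antagonists hold ligands outside the cell: follistatin (Fst) and follistatin-like 3 (Fstl3) wrap around activins, and gremlin 1 (Grem1) blocks BMP2, BMP4 and BMP7. Follistatin-like 1 (Fstl1) carries a follistatin-type domain but is a divergent glycoprotein, made largely by fibroblasts and other stromal cells.

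The promoters of Gdf15, Inhba and Fstl3 are shown because they belong to the ligand gene with the highest ratio between the groups, to the activin A subunit and to an antagonist of that subunit. Each is the 250 bases before a RefSeq transcript start on GRCm38.p6, written 5′ to 3′ on the strand of the gene. Capitals mark the letters CAGAC, the short core of SMAD binding sites, or TATAAA, the TATA box, on either strand. The Gdf15 sequence lies at chr8:70632457-70632706 on the minus strand, the Inhba sequence at chr13:16011601-16011850 on the plus strand and the Fstl3 sequence at chr10:79777024-79777273 on the plus strand.
Gdf15: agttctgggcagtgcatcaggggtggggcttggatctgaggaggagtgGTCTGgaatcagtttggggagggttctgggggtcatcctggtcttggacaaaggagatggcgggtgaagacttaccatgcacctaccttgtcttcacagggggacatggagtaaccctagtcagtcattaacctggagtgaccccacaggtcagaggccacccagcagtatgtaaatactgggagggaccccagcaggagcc
Inhba: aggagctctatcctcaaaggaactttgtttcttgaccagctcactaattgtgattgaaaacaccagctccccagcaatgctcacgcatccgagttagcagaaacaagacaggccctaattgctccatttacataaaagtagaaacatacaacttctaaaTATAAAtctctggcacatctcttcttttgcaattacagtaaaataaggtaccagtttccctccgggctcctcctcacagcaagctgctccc
Fstl3: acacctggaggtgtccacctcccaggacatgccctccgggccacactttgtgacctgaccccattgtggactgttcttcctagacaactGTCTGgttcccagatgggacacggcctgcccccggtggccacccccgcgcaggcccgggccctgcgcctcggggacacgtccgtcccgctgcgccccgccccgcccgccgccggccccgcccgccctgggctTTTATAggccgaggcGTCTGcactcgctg
The Gdf15 window held CAGAC at -202 from the start, and the Fstl3 window held it at -161 and -14. TATAAA was found at -91 in Inhba, on the opposite strand at -29 in Fstl3, and also at -29 in Mstn. Of 32851 RefSeq promoters of the same length, 42.2% held CAGAC and 12.4% held TATAAA. Windows were given for 8 of the 9 genes, all but Fst. CAGAC was also found before another Gdf15 start, in Mstn and in Grem1, and neither CAGAC nor TATAAA in Inhbb, Bmp4 and Fstl1. The letters GGCGCC, a GC-rich element of BMP target genes, were found in the Grem1 window and in 9.59% of all promoters. TGANTCA, the AP-1 site, was found in the Mstn window and in 6.75% of all promoters, and TGATGNAA, the C/EBP-ATF site of the amino acid response, in none of the windows of these genes and in 3.45% of all promoters. A match is a run of letters and not a measured binding site.

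The 3 MI mice were not alike. Over the genes tested, the correlation with the sham-operated mice was 0.984 to 0.987 in MI replicate 2, against 0.878 to 0.881 in MI replicate 1 and 0.903 to 0.906 in MI replicate 3, and 0.989 to 0.992 among the sham-operated mice. Mitochondrial genes held 28.2% of the fragments of MI replicate 2 and 26.5% to 27.4% of those of the sham-operated mice, against 13.6% and 14.9% in MI replicates 1 and 3. MI replicate 2 kept its label and stayed in the main tests, and fold changes and calls without it are given beside them.

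A group of 7 genes was higher in MI replicates 1 and 3 than in any sham-operated mouse: Gdf15, Fst, Fstl1, Inhba, Fstl3, Inhbb and Bmp4, in falling order of their ratio. With Grem1, which had few fragments, 8 of the 9 genes were separated in this way and Mstn was lower, where 43.4% and 8.62% of the 30504 genes above 0 in any mouse were higher and lower in both. Of the 7, Gdf15, Fstl1, Fstl3, Inhbb and Bmp4, or 5 of the 9 genes, were higher in all 3 MI mice than in all 4 sham-operated mice. Among all genes above 0, 12.0% were so separated in this direction. Mstn was near the limit of detection in every mouse, and Grem1 was found only in MI replicates 1 and 3. None of the 9 genes had every MI mouse lower than every sham-operated mouse, against 4.34% of all genes above 0.

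**Figure D1:**
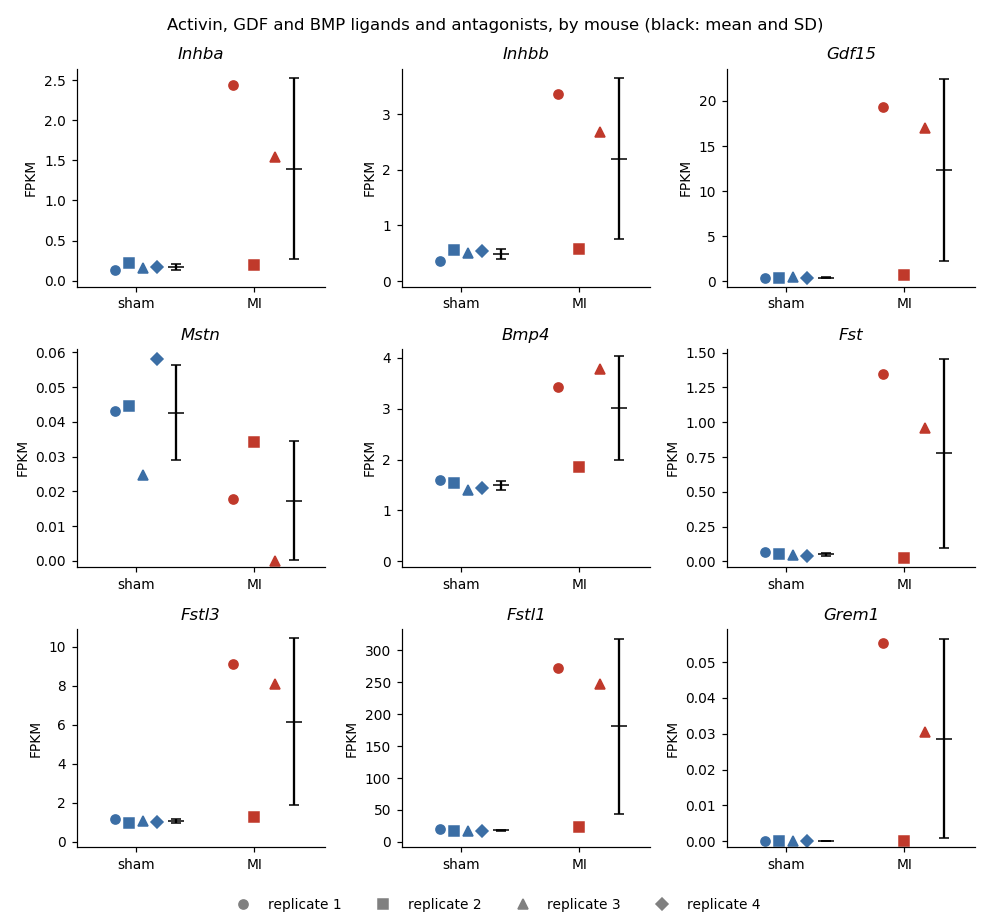
FPKM (vertical axes, linear, with a separate scale for each gene) of the 9 genes in the 4 sham-operated (blue) and 3 MI (red) mice, with a marker shape for each replicate number and the group mean and SD in black (the lower bar ends at 0 at the lowest). MI replicates 1 and 3 lie far above the sham-operated mice for all genes but Mstn and Grem1, which rest on at most 6 fragments per mouse, and MI replicate 2, the square, lies near them.

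Inhba (ENSMUSG00000041324, chr13:16011851-16031621, plus strand) was low in the sham-operated hearts, at 0.132, 0.224, 0.155 and 0.175 FPKM in replicates 1 to 4. In the MI mice it was at 2.44, 0.197 and 1.55 FPKM, which rest on 394, 33 and 271 fragments against 22 to 36 in the sham-operated mice. MI replicates 1 and 3 were high, replicate 2 lay inside the sham range, and the groups overlapped (log2 difference of FPKM + 1 0.90, exact two-sided permutation p = 0.114). The means were 1.39 ± 1.13 (SD, n = 3) and 0.172 ± 0.0390 FPKM (SD, n = 4), a ratio of 8.12, or of 11.6 without MI replicate 2. Inhbb (ENSMUSG00000037035, chr1:119415465-119422248, minus strand) stood at 0.356, 0.553, 0.501 and 0.541 FPKM in sham-operated mice and at 3.36, 0.571 and 2.68 FPKM in MI mice. The groups did not overlap, but replicate 2, with 55 fragments, exceeded the highest sham-operated mouse, with 51, by little. The ratio of the means was 4.51, or 6.19 without MI replicate 2 (log2 difference 0.98, exact p = 0.0571). This p is the smallest that the test as run, which doubles the smaller tail, can give with 4 against 3 mice.

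Gdf15 (ENSMUSG00000038508, chr8:70629393-70632456, minus strand) showed the highest ratio of the 9 genes. The sham-operated mice had 0.351, 0.331, 0.466 and 0.411 FPKM, on 21 to 32 fragments. The MI mice had 19.4, 0.740 and 17.0 FPKM, on 1233, 49 and 1171 fragments. All 3 MI mice were above all 4 sham-operated mice, and replicate 2 was at 1.90 times the sham mean. The group means were 12.3 ± 10.1 (SD, n = 3) and 0.390 ± 0.0612 FPKM (SD, n = 4), a ratio of 31.7 that became 46.6 without MI replicate 2 (log2 difference 2.63, exact p = 0.0571). Its receptor gene Gfral was listed at 0 in all 7 hearts.

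Mstn, the muscle growth inhibitor (ENSMUSG00000026100, chr1:53061640-53068079, plus strand), had 3 to 6 fragments in the sham-operated mice and 2, 4 and 0 in the MI mice. These amounted to 0.0431, 0.0446, 0.0247 and 0.0581 FPKM, and to 0.0178, 0.0342 and 0 FPKM. MI replicate 2 lay inside the sham range and the groups overlapped (exact p = 0.114), so a difference was not detectable at this depth. Bmp4 (ENSMUSG00000021835, chr14:46383520-46390669, minus strand) had the highest level of the 5 ligand genes in the sham-operated hearts and the smallest ratio among the 7 genes. It stood at 1.59, 1.54, 1.40 and 1.44 FPKM in the sham-operated mice and at 3.43, 1.86 and 3.78 FPKM in the MI mice. All MI mice were higher than all sham-operated mice. The ratio of the means was 2.02, or 2.41 without MI replicate 2 (log2 difference 0.66, exact p = 0.0571).

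Follistatin was almost silent in the sham-operated hearts. Fst (ENSMUSG00000021765, chr13:114452290-114458951, minus strand) had 0.0660, 0.0525, 0.0485 and 0.0399 FPKM there, on 7 to 13 fragments. In the MI mice it had 1.35, 0.0252 and 0.955 FPKM, on 258, 5 and 198 fragments. It was the gene on which the MI mice were farthest apart: replicate 1 was 53.6 times and replicate 3 was 38.0 times as high as replicate 2, which was below every sham-operated mouse. The groups overlapped (log2 difference 0.67, exact p = 0.286), and the ratio of the means was 15.0, or 22.3 without MI replicate 2.

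Fstl3 (ENSMUSG00000020325, chr10:79777272-79782630, plus strand) was more abundant, with 1.17, 0.966, 1.09 and 0.998 FPKM in the sham-operated mice. The MI mice had 9.13, 1.26 and 8.11 FPKM. The groups did not overlap, and replicate 2 was 1.20 times the sham mean. The ratio of the means was 5.84, or 8.16 without MI replicate 2 (log2 difference 1.53, exact p = 0.0571). Fstl3 shares 1157 exon bases with Prss57 on the other strand, and the sources do not say whether counting used the strand. Prss57 had at most 0.0162 FPKM in the sham-operated mice and at most 0.0481 FPKM in the MI mice.

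Fstl1 (ENSMUSG00000022816, chr16:37776873-37836514, plus strand) was the most abundant of the 9 genes in every mouse. It had 19.6, 17.2, 17.6 and 17.8 FPKM in the sham-operated mice and 273, 23.8 and 247 FPKM in the MI mice, on 2179 to 2702 and 3306 to 36437 fragments. The groups did not overlap, with replicate 2 at 1.32 times the sham mean. The means were 181 ± 137 (SD, n = 3) and 18.1 ± 1.09 FPKM (SD, n = 4), a ratio of 10.03, or of 14.4 without MI replicate 2 (log2 difference 2.64, exact p = 0.0571).

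Grem1 (ENSMUSG00000074934, chr2:113746164-113758646, minus strand) had no fragment in the 4 sham-operated mice and 5, 0 and 3 fragments in the MI mice, or 0.0553, 0 and 0.0306 FPKM. A count of 0 allows up to 3 fragments per mouse, for counting error only, so no ratio is given (exact p = 0.286).

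**Figure D2:**
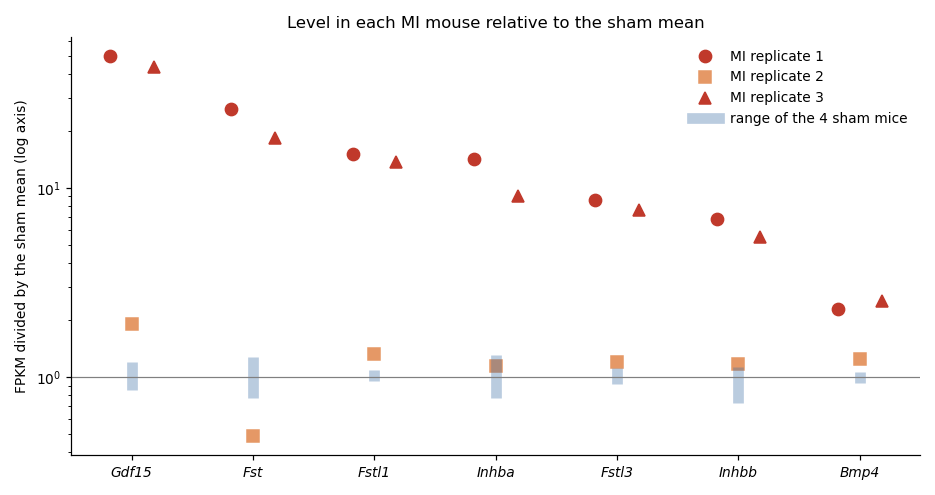
FPKM in each MI mouse divided by the mean of the 4 sham-operated mice (vertical axis, log scale) for the 7 genes with enough fragments, with the range of the sham-operated mice as a blue bar. MI replicates 1 and 3 lie close together for each gene, from 49.7 and 43.5 times the sham mean for Gdf15 to 2.30 and 2.53 times for Bmp4, and MI replicate 2 lies between 0.486 times (Fst) and 1.90 times (Gdf15).

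The comparison was also made in a model across all genes, by limma on log2(FPKM + 1), for the 11431 genes with at least 1 FPKM in at least 3 mice. Only Bmp4, Fstl3 and Fstl1 of the 9 genes passed this filter, and Inhba, Inhbb, Gdf15, Mstn, Fst and Grem1 did not. With all 7 mice, none of the 3 reached an adjusted p under 0.05, and 0.0175% of all genes tested did in the same direction. The log2 fold change was 0.66 (SE 0.18) for Bmp4, 1.53 (SE 0.49) for Fstl3 and 2.64 (SE 0.79) for Fstl1, each with a limma adjusted p of 0.108. All 3 were under an unadjusted p of 0.05, as were 29.5% of the genes tested in this direction. Bmp4 and Fstl1 were over 1 FPKM in all 7 mice, but Fstl3 reached it in only 2 sham-operated mice and so passed the filter through the MI mice, and nothing is read from this count. By fold change, Fstl1 took place 37, Fstl3 place 227 and Bmp4 place 1506 of the 11431 genes.

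Without MI replicate 2, the same model gave 0.89 for Bmp4, 2.22 for Fstl3 and 3.77 for Fstl1, at adjusted p values of 4.55e-05, 2.22e-06 and 3.44e-07 (limma, Benjamini-Hochberg), with the same limit for Fstl3. In this fit 57.0% of all genes tested were higher at an adjusted p under 0.05. When all 30504 genes above 0 were fitted with all 7 mice, 7 of the 9 genes were higher at an unadjusted limma p under 0.05 (20.6% of all genes) and none at an adjusted p under 0.05 (0.0656%). With voom on the 17620 genes with at least 10 fragments in at least 2 mice, 6 of the 7 that entered were higher at an unadjusted limma p under 0.05 (27.5% of these genes) and none at an adjusted p (0.0227%). The fit of all 30504 genes without MI replicate 2 called 8 of the 9 at an adjusted p under 0.05, all but Mstn, beside 35.8% of all genes. Grem1 entered this fit only through 5 and 3 fragments in MI replicates 1 and 3, so nothing is read from its call or from the count of 8. In that fit the limma log2 fold change of Gdf15 was 3.78, that of Inhbb 1.43, that of Inhba 1.34 and that of Fst 1.03.

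The order of the levels, in FPKM and so per length, differed between the groups. In sham-operated hearts it ran Fstl1, Bmp4, Fstl3, Inhbb, Gdf15, Inhba, Fst, Mstn and Grem1. The ranges of Inhbb and Gdf15 overlapped, as did those of Fst and Mstn, and all other neighbours were separate. In MI replicates 1 and 3 the order was Fstl1, Gdf15, Fstl3, Bmp4, Inhbb, Inhba, Fst, Grem1 and Mstn, with Gdf15 moving from the fifth place to the second. Over all 3 MI mice the order of the means was the same, but only Fstl1 and Gdf15 had separate ranges.

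Ligand and antagonist, or both activin subunits, were also compared within each mouse. The ratio of Inhba to Inhbb FPKM was 0.310 to 0.405 in the sham-operated mice and 0.727, 0.344 and 0.578 in the MI mice, so that Inhbb was the higher subunit in every heart. The ratio of Inhba to Fstl3 was 0.113 to 0.232 in the sham-operated mice and 0.267, 0.155 and 0.191 in the MI mice. For Inhba to Fst the values were 2.00 to 4.40 in the sham-operated mice and 1.81, 7.81 and 1.62 in the MI mice, with MI replicates 1 and 3 the lowest and replicate 2 the highest of the 7. The follistatins Fst and Fstl3 together were 1.31 to 2.54 times the sum of the activin subunits in the sham-operated mice and 1.81, 1.68 and 2.14 times in the MI mice, which lay inside the sham range.

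**Figure D3:**
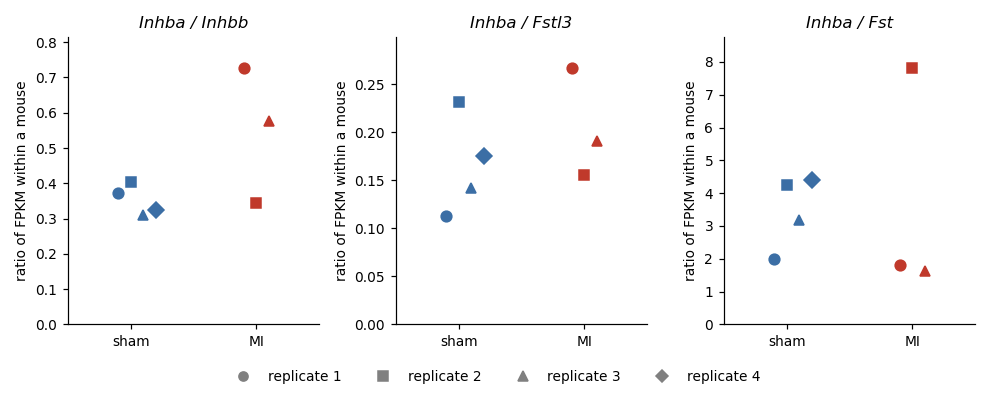
Ratio of FPKM within each mouse (vertical axes, linear from 0) of Inhba to Inhbb, to Fstl3 and to Fst, by group and replicate. The Inhba to Inhbb ratio is highest in MI replicates 1 and 3, at 0.727 and 0.578, and the groups overlap in all 3 panels.

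On the log2(FPKM + 1) scale, 4 such differences were tested between the groups with exact permutation tests over the mice. Inhba minus Fst was higher in the MI mice by 0.23 (exact p = 0.0571, adjusted over the 4 pairs 0.114). Inhba minus Fstl3 differed by -0.63 (exact p = 0.114, adjusted 0.152), Inhba minus Inhbb by -0.08 (exact p = 0.343, adjusted 0.343) and Grem1 minus Bmp4 by -0.62 (exact p = 0.0571, adjusted 0.114). The last restates the difference in Bmp4, since Grem1 was at or near 0 in every mouse. The exact test as run doubles the smaller tail and cannot give a p below 0.0571 with these mice, so no pair could pass 0.05. The 4 differences without MI replicate 2 were, in the same order, 0.31, -0.89, -0.09 and -0.82. Since 1 FPKM is added before the log, genes as low as Inhba and Fst are compressed. The direction of Inhba minus Fst is opposite to that of the FPKM ratio in MI replicates 1 and 3, which was the lowest of the 7 mice. With 0.1 added instead, Inhba minus Inhbb was 0.32, Inhba minus Fst 0.07 (exact p = 0.800) and Inhba minus Fstl3 -0.03 (exact p = 0.971).

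Markers of other cell types were also summed for each mouse, and their lists did not all follow these genes. The summed FPKM of 8 fibroblast markers was 122 to 145 in the sham-operated mice and 2492, 232 and 1923 in the MI mice. That of 8 macrophage markers was 102 to 126 and then 615, 123 and 518, and that of 6 mesothelial markers 4.16 to 9.69 and then 29.4, 20.9 and 43.5. The 8 cardiomyocyte markers summed to 13686 to 15002 FPKM in the sham-operated mice and to 9090, 13753 and 9644 in the MI mice. The 8 endothelial markers summed to 137 to 155 and to 174, 130 and 188. Skeletal muscle markers were at 5.52 to 7.93 and then 14.3, 7.26 and 13.8, with Myh4 at 0 in all mice. Most of this sum was Mybpc2, at 6.26 FPKM in the sham-operated mice on average and at 11.8, 6.51 and 10.8 FPKM in the MI mice. Tnnt3 was at 0.138 to 0.208 FPKM in the sham-operated mice and at 1.88, 0.221 and 2.54 FPKM in the MI mice, without overlap, and the other 6 markers stayed under 0.4 FPKM in every mouse. The 3 atrial markers did not exceed 1.78. All 8 fibroblast, all 8 macrophage and the 5 tested mesothelial markers were higher at an unadjusted limma p under 0.05. So were 2 of the 8 endothelial markers, and 5 of the 8 cardiomyocyte markers were lower, beside 29.5% and 9.85% of all genes tested. Fcgr1, Lrrn4, Krt19 and Upk1b passed the filter through the MI mice, so nothing is read from the macrophage and mesothelial counts. The part of these cells in the levels above was not tested, and in bulk tissue more cells of a type and more RNA per cell cannot be told apart.

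The wider pathway was read from a list of 97 genes, of which 96 had a single identifier, 6 were at 0 in all mice and 46 passed the filter. At an unadjusted limma p under 0.05, 20 were higher and 2 lower in the MI mice, beside 29.5% and 9.85% of all genes tested. The median log2 fold change of the 46 was 0.36 and that of all genes 0.21. None passed at an adjusted p under 0.05 (0.0175% and 0.00875% of all genes). The groups did not overlap for 14 higher and 2 lower genes, beside 16.1% of all genes tested for the higher direction and 1029 of the 11431 genes for the lower. The split at an unadjusted limma p depends on the scaling. It was 10 higher and 7 lower after quantile normalization, and 10 and 5 after scaling by the median log-ratio, beside 4451 and 4446 of 11431 genes in either direction. Without MI replicate 2, 34 were higher and 4 lower at an adjusted limma p under 0.05, beside 57.0% and 14.7% of all genes.

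Of the genes that respond to activin and TGF-beta through SMAD3, all 3 that passed the filter were higher at an unadjusted limma p under 0.05, beside 29.5% of all genes tested. Ccn2, a matricellular protein gene, had 14.5 ± 2.11 FPKM in sham-operated mice (SD, n = 4) and 220, 22.1 and 329 FPKM in the MI mice (log2 fold change 2.95, SE 0.83, limma adjusted p = 0.108). Pmepa1, an inhibitor of SMAD signalling, had 4.83 ± 0.0507 and then 32.8, 4.98 and 33.2 (log2 fold change 1.71). The groups did not overlap for either gene. The log2 fold changes without MI replicate 2 were 4.13 for Ccn2 and 2.54 for Pmepa1, and all 3 genes of the list passed at an adjusted limma p under 0.05, beside 57.0% of all genes.

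Of 5 genes that respond to BMP, Id2, Id3 and Atoh8 were higher at an unadjusted limma p under 0.05, beside 29.5% of all genes tested. Id2 and Id3, inhibitors of differentiation, had log2 fold changes of 1.17 and 1.14, but MI replicate 2 was slightly below the sham range for both. Id3 had 19.9 ± 0.571 FPKM in the sham-operated mice (SD, n = 4) and 72.9, 18.6 and 66.1 FPKM in the MI mice. Id1, a classical BMP target, had 25.2 ± 4.06 FPKM and then 19.1, 24.6 and 24.5 (log2 fold change -0.14, limma adjusted p = 0.503). Atoh8 had a log2 fold change of 0.38. With MI replicate 2 left out the values were 1.801 for Id2, 1.75 for Id3, 0.54 for Atoh8 and -0.20 for Id1, and the first 3 passed at an adjusted limma p under 0.05, beside 57.0% of all genes.

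The inhibitory SMAD genes Smad6 and Smad7 had 0.45 (limma adjusted p = 0.163) and 0.27 (limma adjusted p = 0.318), and 0 of the 6 SMAD genes tested were under an unadjusted p of 0.05, where 29.5% of all genes were higher. This rests on MI replicate 2: without it, all 6 were higher at an adjusted limma p under 0.05, beside 57.0% of all genes, with 0.73 for Smad6 (limma adjusted p = 0.00140) and 0.51 for Smad7 (limma adjusted p = 0.00838). After quantile normalization of all mice, Smad6 had 0.17 and Smad7 changed sign, to -0.02.

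Among the receptors, 3 of 7 were higher and 1 was lower at an unadjusted limma p under 0.05, beside 29.5% and 9.85% of all genes tested. Acvrl1, a type I receptor of endothelial cells, had a log2 fold change of 0.60, the activin type I receptor Acvr1b 0.42 and the BMP type II receptor Bmpr2 0.33. Ret, the signalling partner of GFRAL and of the GDNF receptors, was lower, with 1.92 ± 0.134 FPKM in the sham-operated mice (SD, n = 4) and 0.966, 1.46 and 0.922 FPKM in the MI mice (log2 fold change -0.47). Ret was under 1 FPKM in MI replicates 1 and 3 and so passed the filter through the sham-operated mice. Nothing is read from its calls, with or without MI replicate 2, or from the counts of lower genes that hold it. The activin type II receptor Acvr2a had 0.04 (limma adjusted p = 0.702), and the type I receptors Acvr1 and Bmpr1a had 0.42 (limma adjusted p = 0.146) and 0.12 (limma adjusted p = 0.395). Without MI replicate 2, 5 of the 7 were higher and Ret was lower at an adjusted limma p under 0.05, beside 57.0% and 14.7% of all genes. There Acvr1 had 0.67 (limma adjusted p = 9.44e-05), Bmpr1a 0.24 (limma adjusted p = 0.00541) and Acvr2a 0.07 (limma adjusted p = 0.411), with 0.75 for Acvrl1, 0.59 for Acvr1b, 0.46 for Bmpr2 and -0.58 for Ret. With all 7 mice, Acvr2a and Bmpr1a changed sign after quantile normalization, to -0.25 and -0.13. Acvrl1 fell to 0.31 there, Acvr1b to 0.14, Acvr1 to 0.11 and Bmpr2 to 0.04. Acvr2b did not pass the filter, with 0.226 to 0.591 FPKM in the sham-operated mice and 0.195, 0.238 and 0.173 FPKM in the MI mice.

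Of 7 co-receptors and decoys, 3 were higher and 1 was lower at an unadjusted limma p under 0.05, beside 29.5% and 9.85% of all genes tested. Hjv, the hemojuvelin gene, a BMP co-receptor of striated muscle and liver, was the most abundant of them and was lower in all 3 MI mice. It had 112 ± 8.17 FPKM in the sham-operated mice (SD, n = 4) and 45.1, 84.7 and 47.4 FPKM in the MI mice (log2 fold change -0.97, SE 0.22, limma adjusted p = 0.108). Bambi, a decoy receptor without a kinase, had a log2 fold change of 0.65, and Eng, the endoglin gene, 0.43. With MI replicate 2 left out they were -1.26 for Hjv, 0.88 for Bambi and 0.64 for Eng, each at an adjusted limma p under 0.05, beside 57.0% of all genes higher and 14.7% lower.

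At an unadjusted limma p under 0.05, 3 of 7 other antagonists, with Bmper among them, and 2 of 4 ligand-processing proteases were higher and none lower, beside 29.5% and 9.85% of all genes tested. Nbl1, a BMP antagonist related to gremlin, had 5.81 ± 0.470 FPKM in the sham-operated mice (SD, n = 4) and 25.2, 7.23 and 34.2 FPKM in the MI mice (log2 fold change 1.53). Bmper and Twsg1, extracellular BMP binders, had log2 fold changes of 1.06 and 0.42. Bmper reached 1 FPKM in only 1 sham-operated mouse and so passed the filter through the MI mice, and nothing is read from its calls or from the count that holds it. Bmp1, which encodes a metalloprotease and not a BMP ligand, had 3.84 ± 0.101 FPKM and then 26.2, 4.51 and 20.5 (log2 fold change 1.61). Furin, which cleaves ligand precursors, had 0.26, and -0.01 after quantile normalization. Bmp6, with 0.42, and Inha, with -0.31, were the only other ligand genes that passed the filter, and Bmp6 was under an unadjusted limma p of 0.05. Of the stress response genes, Atf4 and Chac1 were under an unadjusted p of 0.05, with 0.74 and 0.49. Without MI replicate 2 the values were 2.16 for Nbl1, 0.65 for Twsg1, 2.32 for Bmp1, 0.33 for Furin, 0.50 for Bmp6, -0.47 for Inha and 1.01 for Atf4, all at an adjusted limma p under 0.05, beside 57.0% of all genes higher and 14.7% lower. Chac1 had 0.47 in that fit (limma adjusted p = 0.0605) and Bmper 1.45.

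**Figure D4:**
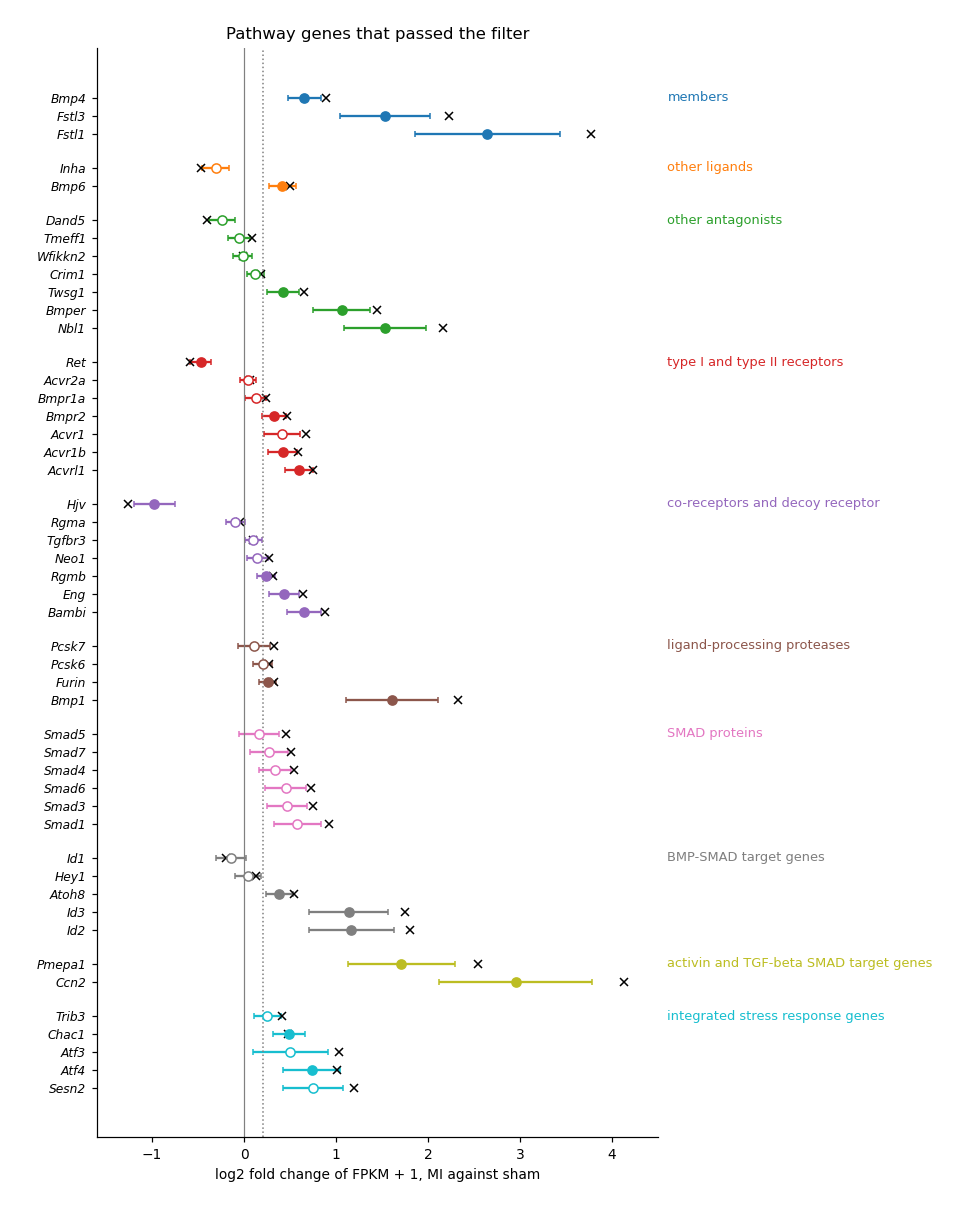
Log2 fold change of FPKM + 1 (horizontal axis, MI against sham, with SE bars) for 3 of the 9 genes and the pathway genes that passed the filter, all but 1, grouped by role. Filled points have an unadjusted limma p under 0.05, crosses give the value without MI replicate 2, and the dotted line is the median of all genes, 0.21; Ccn2 is highest, at 2.95, and Hjv lowest, at -0.97.

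The genes whose profile over the 7 mice was nearest to that of Fstl3, by the root mean square difference of log2(FPKM + 1) after subtracting the sham mean, were Actn1 (0.0475) and Gpx7 (0.0580). Actn1, a non-muscle alpha-actinin, had 4.38 to 4.57 FPKM in the sham-operated mice and 25.7, 5.10 and 24.5 FPKM in the MI mice. For Fstl1 they were Loxl3 (0.0574), a lysyl oxidase family gene, and Mpeg1 (0.107), a gene of macrophages. Loxl3 had 1.02 to 1.48 FPKM in the sham-operated mice and 28.1, 1.88 and 27.3 FPKM in the MI mice.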

How the data were processed

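RNA from the myocardium of 7 mice, 4 sham-operated and 3 MI, was sequenced, with each mouse giving 1 library and groups taken from the labels. The authors deposited FPKM values for 56980 genes in 1 table, and 0 columns of values were left unused. The submitters' processing notes name CASAVA 1.8, HISAT2, SAMtools 1.3.1 and mm10. The counting program, its strand setting and the annotation are not given in the sources used here. The lengths implied by the FPKM values differed from those of GENCODE M21 on GRCm38 for 7 of the 9 genes, such as 2925 against 1852 bases for Gdf15. FPKM is relative to the whole library, so the fall in mitochondrial fragments in 2 MI mice raises all other genes there.

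Symbols and positions were taken from GENCODE M21, which held 91.5% of the identifiers, and promoters from RefSeq (GRCm38.p6). Whole fragments were recovered from the steps in the FPKM values, within 0.05 of a whole number in all mice, for 30499 of 30504 genes above 0; intervals and floors cover counting error only. Genes with at least 1 FPKM in at least 3 mice were tested as log2(FPKM + 1) with limma 3.58.1 (lmFit, eBayes with trend, Benjamini-Hochberg over 11431 genes) in R 4.3.3, without covariates. For single genes, exact two-sided permutation tests used all 35 splits of the mice. The spread over mice covers animal and technical differences together. Fits and recovery were tested on simulated data. Tables and figures were made in Python 3.11.15 with SciPy 1.17.1, NumPy 2.4.6, matplotlib 3.10.9 and pandas 2.3.3.

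The genes, the lists and the tests were chosen with earlier results of these data known. Named are the 9 genes, the receptors, Smad6, Smad7 and Id1, up to 3 pathway genes of each role with the largest fold change at an unadjusted p under 0.05, and the 2 genes of nearest profile. Gfral, the markers, Inha and the low genes of the closing section were named outside this rule after their values were seen. Ddit3 had more than 1 identifier and was left out. Some genes under this rule are not reported here. Alternatives were another pseudocount, other filters, TPM, quantile and median scaling, no mitochondrial genes, no trend, sample weights, voom, a replicate block and each mouse left out.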

Additional observations from a re-analysis of the deposited data

Results flagged for a closer look

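In the 4 sham-operated mice, 1 value stood apart from the other 3 for a pair of pathway genes. For Crim1, a BMP-binding membrane protein gene, the gap of the lowest mouse to its neighbour was 0.959 of the whole range, and for Eng, the endoglin gene, the gap of the highest mouse was 0.877, both above Dixon's critical value for 4 samples. The full ranges were narrow, at 4.66 to 5.03 FPKM for Crim1 and 19.1 to 21.3 FPKM for Eng. Chance flags about 1 in 20 groups, and with 59 groups tested 2.95 would be expected. None of the 9 ligand and antagonist genes was flagged.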

How the results depend on the processing

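At an unadjusted limma p under 0.05, the counts of the 9 genes that were higher were 3 with the filter and all mice (29.5% of all genes), 7 without a filter (20.6%), 5 with a filter on the mean (4740 of 11804 genes in either direction), 6 with voom on genes of at least 10 fragments in at least 2 mice (27.5%) and 8 without a filter and without MI replicate 2, where 8 also passed at an adjusted p (35.8%). The last 2 settings were chosen after seeing the data. Gdf15 and Inhbb, with sham means of 0.390 and 0.488 FPKM, passed the filter on the mean through the MI mice. Grem1, which is among the 8, was above 0 only in MI mice. Nothing is read from the counts under these 2 filters. At an adjusted p, the main 0 became 3 with sample weights (9952 of 11431 genes). Leaving out each mouse gave 2 to 3 at an unadjusted p (1487 to 8492 of 11431 genes in either direction). At an adjusted p it gave 0 to 3 (0 to 8195 genes), the 3 without MI replicate 2. Genes with every MI mouse higher numbered 5 to 8, the 8 without MI replicate 2 (43.4% of all genes above 0), and those with every MI mouse lower 0 to 1, which was Mstn without sham replicate 3 or MI replicate 2 (8.62% without the latter).

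Pathway genes higher and lower at an unadjusted p, 20 and 2 with the filter and all mice, were 10 and 7 after quantile normalization, 10 and 5 after median scaling, 37 and 5 with sample weights, 32 higher without a filter, and 64 and 5 without a filter and MI replicate 2. All genes called in either direction moved too, from 4496 of 11431 to 4451, 4446 and 9998 of 11431 and to 7730 and 14601 of 30504, in the same order. With each mouse left out the pathway genes were 7 to 35 and 2 to 4, and all genes called in either direction 1487 to 8492 of 11431. At an adjusted p, 0 and 0 became 37 and 5 with sample weights (9952 of 11431 genes), and 58 and 5 without a filter and MI replicate 2 (12706 of all 30504 genes). They were 0 to 34 and 0 to 4 with each mouse left out (0 to 8195 of 11431 genes in either direction). Pathway genes without overlap, 14 higher and 2 lower (16.1% and 1029 of 11431 genes tested), were 8 and 6 after quantile normalization and 9 and 5 after median scaling. They were 14 to 36 and 2 to 4 with each mouse left out. The highest value of each of these ranges came from leaving out MI replicate 2. Shares over the genes tested were not computed for the no-overlap counts under other settings, so nothing is read from those shifts. Inhba minus Inhbb reversed, to 0.32 with a pseudocount of 0.1 and to 0.0034 in TPM, and -0.12 to -0.02 was its range with each mouse left out. The causes were not tested.

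No sign of pairing by replicate number was seen, as deviations of same-numbered mice from their group means correlated at 0.0739, -0.0163 and -0.0802. These values cannot exclude a shared batch. With a replicate block, 12 pathway genes were higher at an unadjusted p, and Bmp4, Fstl1 and Fstl3, the last with the limit given above, kept an unadjusted p under 0.05, where 2332 of 11431 genes were called in either direction. The log2 differences of the 9 genes kept their direction under every scaling, pseudocount and mouse left out. Low fragment numbers limit Mstn, Grem1 and, in all mice but MI replicates 1 and 3, Fst.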

Other observations

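Several relatives of these genes stayed under the filter. Gdf6, a ligand of joint and eye development, had 0.209 to 0.255 FPKM in the sham-operated mice and 4.24, 0.225 and 4.13 FPKM in the MI mice, with MI replicate 2 inside the sham range. Lefty1, an inhibitor of Nodal, had 0.377 to 0.648 FPKM and then 2.27, 0.822 and 2.56, without overlap. Fstl4 was at 0.224 to 0.347 FPKM and then 0.650, 0.484 and 0.580, with MI replicate 2 near the others. The protease genes Tll1 and Tll2, both related to Bmp1, went opposite ways. Tll1 had 0.0515 to 0.112 FPKM and then 0.322, 0.166 and 0.422, and Tll2 had 0.310 to 0.560 FPKM and then 0.0941, 0.305 and 0.0316, and neither overlapped. These genes were named after their values were seen, and no test is given for them.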
